A study of Rattus norvegicus with 12 samples.

Results

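The empty-vector (mock) cells of a rat oligodendroglial line were followed from 8 to 16 h after transfection. Their arrays were chosen by the label mock, and they are 6 of the 12 arrays of the series, 2 each at 8, 12 and 16 h. All cells, mock and p25alpha alike, are OLN cells that stably express alpha-synuclein. Mock cells received an empty control vector, and the other 6 arrays came from cells given p25alpha in pcDNA3.1, also collected at 8, 12 and 16 h. Fugene-6, a lipid-based transfection reagent, carried the plasmid in both. The sources used here do not give the promoter of the alpha-synuclein construct, whether the line is 1 clone, or whether each experiment had its own cultures. The series holds 2 experiments with 1 array per time in each, so p-values reflect only how far these arrays differ, some of which may be technical. No group of untransfected cells or of cells collected before transfection was analysed here, so time after transfection cannot be told apart from time in culture.

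Cultured cells take part of their cholesterol from the serum and make the rest. The membrane-bound transcription factors SREBP-1 and SREBP-2 (genes Srebf1 and Srebf2) are held in the endoplasmic reticulum by the Insig proteins while sterols are plentiful, and are released and cleaved when sterols fall, after which they turn on the genes of cholesterol and fatty acid synthesis. Oligodendrocytes are known for a high rate of this synthesis, because myelin is rich in cholesterol. The genes of G2 and mitosis form a second well-known group that moves together: they are switched on late in the cell cycle through promoter elements bound by the DREAM and B-Myb complexes.

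Between 51.8% and 55.2% of probe sets were called present on the 6 mock arrays, and 17992 of 31096 probe sets were tested, those present on at least 2 of the 6. A probe set is a group of short probes read as 1 value, and its MAS5 signal is a linear brightness. The first principal component, with 57.3% of the variance, separated experiment 1 from experiment 2, so times were compared within experiments. Of 13 oligodendrocyte lineage markers with a probe set, 10 were present on at least 4 of the 6 arrays, among them Sox10, Pdgfra and Cnp. Mobp and Olig2 were present on none. Here and for the markers that follow, the probe set of a gene with the most present calls was counted. Mbp was present on 4 arrays by that probe set and on 0 by its brightest. Mag and Cldn11 were counted as present at median signals of only 22.6 and 8.45. Microglia markers were present on 4 or more arrays in 0 of 9 genes. Of the neuron markers 6 of 10 were present on at least 4 arrays and 3 on none, with Map2 and Nefm on all 6 and Tubb3, Syn1 and Dcx on none. Of the astrocyte markers 5 of 9 were present on at least 4 and 3 on none, with S100b and Gfap on all 6 and Slc1a2, Aldh1l1 and Sox9 on none. Of the fibroblast and smooth muscle markers 4 of 10 were present on at least 4 and 4 on none, with Col1a1 and S100a4 on all 6 and Col1a2, Dcn, Lum and Thy1 on none. The ratio of the actin probe sets at the 3′ and 5′ ends, which rises as RNA is degraded or labelling is cut short, was 2.14, 2.49 and 2.60 at 8, 12 and 16 h in experiment 1 and 4.65, 5.35 and 7.05 in experiment 2. It was higher at later times in both experiments, as many of the values that follow were, and its part in them was not tested. The GAPDH ratio lay between 0.925 and 1.09 and had no common order. In bulk RNA, a change in the share of cells that use a gene and a change per cell cannot be told apart.

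With experiment as a block, limma's moderated test called 0 of the 17992 probe sets at 16 h against 8 h (0% higher and 0% lower at a Benjamini-Hochberg adjusted p below 0.05), and the smallest adjusted p was 0.801. An unadjusted p below 0.05 was found for 1073 probe sets, against 899.6 if p-values were evenly spread. This fit gives every probe set the same prior variance, dim or bright. A second limma fit (trend and robust) was planned only as an alternative to that test. It lets the variance depend on signal and limits the pull of outlying variances. This second fit called 51 probe sets as risen (0.283%) and 22 as fallen (0.122%). All 73 moved the same way in both experiments. An offset of 50 before the logarithm called 54 and 29, and the 73 were among them. Rise and fall are stated here on the second fit, and each such gene failed the first. The genes that the second fit called were added after values were seen. Without the block the second fit called 0, and without the 16 h array of experiment 2 it called 13. Without either of the 8 h arrays it called 118 (experiment 1 left out) or 116 (experiment 2 left out).

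The risen genes were mostly those of sterol and fatty acid synthesis. The 51 risen probe sets included 42 with a single gene symbol, which stand for 36 genes, and 22 of these belong to the cholesterol and fatty acid lists. The 22 fallen probe sets included 17 with a symbol, which stand for 16 genes, among them interleukin 33 and its receptor, the cytochrome P450 enzymes Cyp1a1 and Cyp1b1, a metallothionein and 3 genes of mitosis. Over all tested probe sets the median change was -0.02 on the log2 scale, and the SD across probe sets was 0.37.

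**Figure D1:**
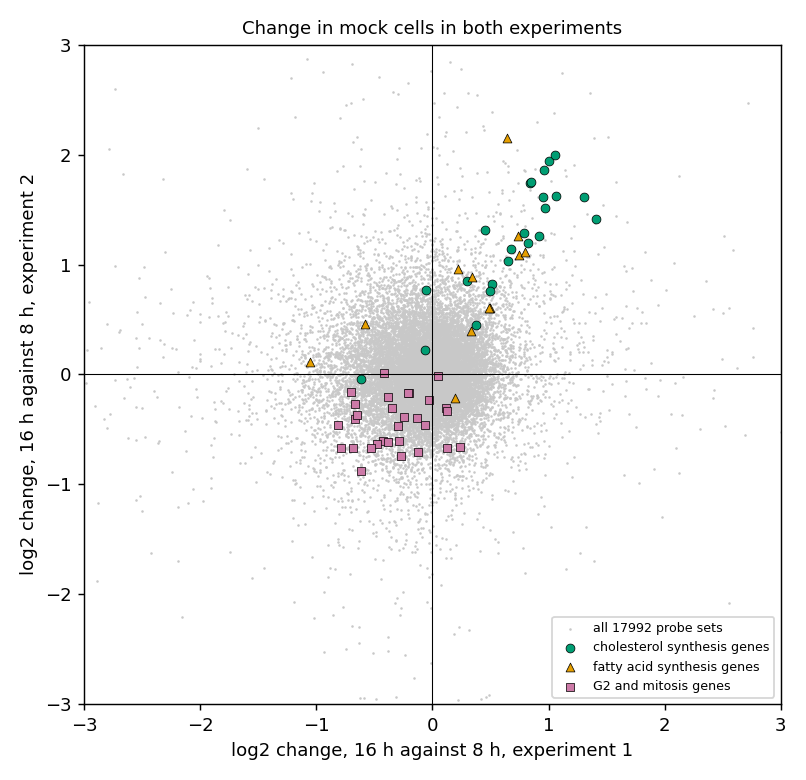
Log2 change in MAS5 signal from 8 to 16 h in mock cells, experiment 1 on the horizontal and experiment 2 on the vertical axis, each grey point being 1 of 17992 probe sets and each coloured symbol the brightest tested probe set of a listed gene. Cholesterol synthesis genes (circles) lie mostly in the upper right, G2 and mitosis genes (squares) mostly in the lower left, and 116 probe sets beyond 3 on either axis are not drawn.

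Start regions of 3 cholesterol genes are shown because all 3 carry CCAAT boxes, the binding letters of NF-Y, which is known to act beside SREBP at such genes. They come from RefSeq (GRCr8), run 5′ to 3′ along the gene from 250 bases before to 50 after the start, and have CCAAT on either strand in capitals:
Fdps, chr2:176804767-176805066, minus strand: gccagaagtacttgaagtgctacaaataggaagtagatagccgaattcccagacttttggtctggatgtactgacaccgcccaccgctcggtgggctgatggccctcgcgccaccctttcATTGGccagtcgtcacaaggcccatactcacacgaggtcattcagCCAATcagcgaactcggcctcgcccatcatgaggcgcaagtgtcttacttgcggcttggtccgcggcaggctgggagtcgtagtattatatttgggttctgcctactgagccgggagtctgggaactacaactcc
Nsdhl, chrX:155817110-155817409, plus strand: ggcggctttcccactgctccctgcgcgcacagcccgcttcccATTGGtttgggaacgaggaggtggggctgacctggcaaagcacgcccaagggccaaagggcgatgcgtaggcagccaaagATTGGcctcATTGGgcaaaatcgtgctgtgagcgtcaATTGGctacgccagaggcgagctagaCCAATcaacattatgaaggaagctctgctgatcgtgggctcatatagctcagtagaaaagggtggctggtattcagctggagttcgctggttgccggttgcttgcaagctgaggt
Hmgcs1, chr2:53382054-53382353, plus strand: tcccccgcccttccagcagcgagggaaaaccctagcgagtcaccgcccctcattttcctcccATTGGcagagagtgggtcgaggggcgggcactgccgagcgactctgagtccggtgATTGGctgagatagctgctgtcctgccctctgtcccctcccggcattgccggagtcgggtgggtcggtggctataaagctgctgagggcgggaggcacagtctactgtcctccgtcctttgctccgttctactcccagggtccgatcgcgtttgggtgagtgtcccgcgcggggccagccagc
RefSeq start regions were at hand for 16 of the 23 tested cholesterol genes. CCAAT or its complement ATTGG stood in 13 of the 16 (81.2%), against 37.7% of all 27457 start regions of that length. The form TCACNCCAC of the sterol regulatory element, searched on both strands, stood in 0 of the 16, against 1.13% of all. The shares describe these letters in these windows only.

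Cholesterol synthesis genes had higher signals at 16 h than at 8 h in nearly every step of the pathway. Of the 24 genes on the list, 23 were tested. In the second fit 18 of the 23 rose and 0 fell, against 0.402% and 0.126% of all 8707 genes. At least 1.5-fold higher in both experiments were 15 of 23, against 1.05% of all genes, and 20 of 23 were higher in both experiments at any size, against 24.7%, while 1 was lower in both. The median change was 1.04 on the log2 scale, 0.82 in experiment 1 and 1.28 in experiment 2, against -0.01 over all genes. Without the 16 h array of experiment 2 the second fit called 5 of the 23, and over the other arrays left out it called 12 to 19.

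The early pathway, from acetyl-CoA to isoprenoid units, rose at each enzyme named here. Acat2, which joins acetyl-CoA units, had signals of 883, 1204 and 1847 at 8, 12 and 16 h in experiment 1 and of 676, 1257 and 2079 in experiment 2. Both 16 h arrays lay above both 12 h arrays, and these above both 8 h arrays. Its 2.53-fold rise was 1.34 ± 0.21 on the log2 scale, where ± gives the SE of the planned fit, here and below. Its adjusted p was 2.98e-05 in limma with trend and robust. Hmgcs1, HMG-CoA synthase, rose 1.79-fold, from 2185 to 3437 and from 2494 to 5089. The kinases Mvk and Pmvk rose 2.66-fold and 2.01-fold, and Mvd, the decarboxylase that follows them, rose 2.88-fold. Mvd went from 137 through 210 to 284 in experiment 1 and from 71.3 through 180 to 285 in experiment 2. Idi1, which isomerises the C5 unit, rose 2.05-fold, or by 1.04 ± 0.20 on the log2 scale.

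Fdps, farnesyl diphosphate synthase, joins these units into the last precursor shared by sterols and prenylated proteins. Its signal was 1863, 3184 and 4936 in experiment 1 and 1467, 2358 and 3921 in experiment 2. It changed almost equally in both, by 1.41 and 1.42, and the rise of 1.41 ± 0.16 had an adjusted p of 3.54e-06 in limma with trend and robust. Fdft1, squalene synthase, rose 1.88-fold by its brighter probe set and 1.81-fold by the other. Sqle, squalene epoxidase, rose 1.55-fold and Lss, which closes the first sterol ring, 2.46-fold. Lss went from 118 to 212 in experiment 1 and from 97.0 to 326 in experiment 2, so the change of 0.85 in the first was less than that of 1.75 in the second.

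The late steps, which turn lanosterol into cholesterol, held the largest rise of all named genes. Tm7sf2, a sterol C14 reductase that was not on the fixed list, had signals of 153, 344 and 666 in experiment 1 and 206, 333 and 718 in experiment 2. No 2 times overlapped. It rose 3.90-fold, by 1.96 ± 0.19 on the log2 scale (adjusted p = 1.03e-06 in limma with trend and robust). Cyp51, the lanosterol demethylase, rose 2.13-fold by its brighter and 2.78-fold by its dimmer probe set. Nsdhl, a C4 decarboxylating enzyme of the same step as Msmo1, had signals of 748, 1202 and 1844 in experiment 1 and 751, 1474 and 2306 in experiment 2. That is a 2.75-fold rise, or 1.46 ± 0.17, and the times again did not overlap. Msmo1 rose by less, 1.59-fold, from 2743 to 3924 and from 3187 to 5639. Erg28, a scaffold for the C4 demethylation enzymes that was not on the list, rose 1.81-fold. Hsd17b7, Sc5d and Dhcr7, enzymes of the later steps, rose 2.36-fold, 2.78-fold and 2.43-fold. Hsd17b7 was called present on only 1 of the 2 arrays at 8 h.

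Of 5 regulators and carriers described here, Insig1 passed the threshold and the other 4 did not. Insig1, which retains SREBP in the endoplasmic reticulum and is itself an SREBP target, went from 597 through 953 to 1067 in experiment 1 and from 439 through 999 to 1464 in experiment 2. The rise was 1.29 ± 0.26 (adjusted p = 0.00027 in limma with trend and robust). Insig2, its relative, changed by 0.08 ± 0.18 and went opposite ways in the experiments. Srebf2 changed by -0.06 in experiment 1 and 0.77 in experiment 2, and Srebf1 by -0.58 and 0.46, so neither transcript had a common direction. These are mRNA signals, and cleavage of the proteins was not measured. Stard4, a sterol carrier, was 1.33-fold higher with an adjusted p of 0.58 in the same fit.

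**Figure D2:**
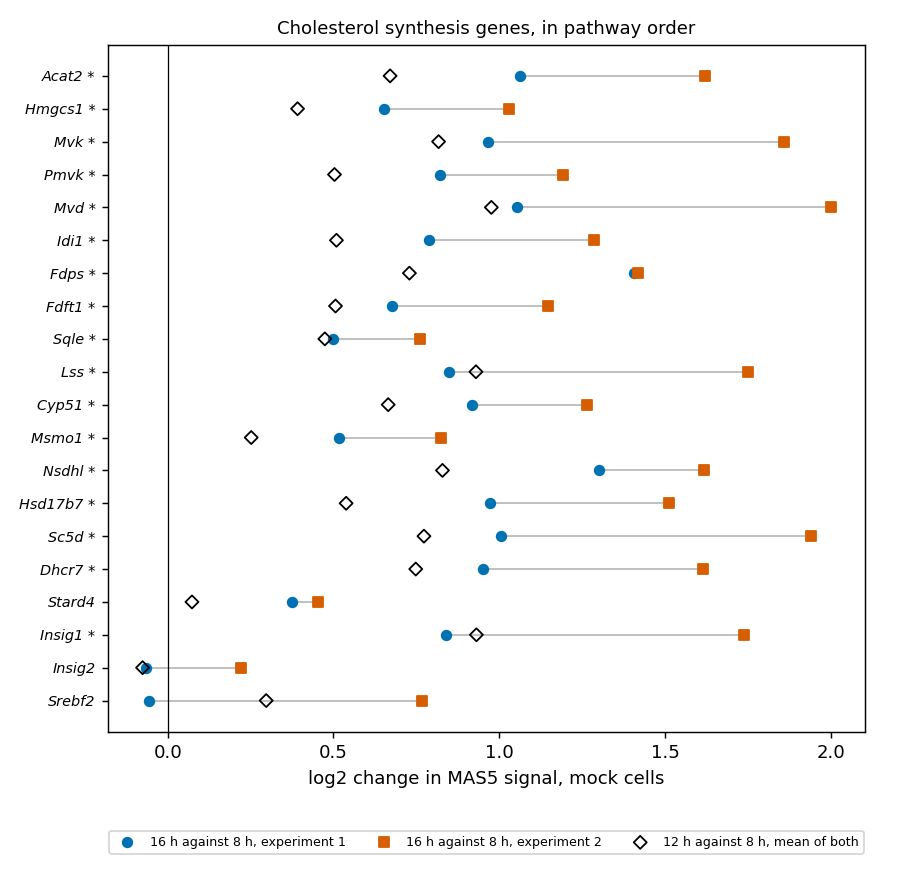
Log2 change in MAS5 signal against 8 h for 20 of the 23 tested cholesterol synthesis genes in mock cells, ordered along the pathway with the regulators last. Circles and squares give 16 h in experiments 1 and 2, diamonds the mean of both at 12 h, and an asterisk marks the 17 of these genes that passed in limma with trend and robust. The 12 h diamond lies nearer to 0 than both 16 h symbols for most genes.

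The fatty acid genes moved in the same direction and by less. Of 15 on the list 12 were tested, and 4 rose and 0 fell in the second fit, against 0.402% and 0.126% of all genes. At least 1.5-fold higher in both experiments were 4, against 1.05% of all genes. Higher in both at any size were 9, against 24.7%, and lower in both 0, against 27%. The median change was 0.57. Acly, which makes cytosolic acetyl-CoA from citrate, rose 1.89-fold, from 1295 to 2172 in experiment 1 and from 1734 to 3675 in experiment 2. Fasn, fatty acid synthase, had signals of 913, 1314 and 1522 in experiment 1 and 896, 1390 and 2142 in experiment 2, a rise of 0.74 and 1.26 on the log2 scale (adjusted p = 0.000858 in limma with trend and robust). Its second probe set rose 2.02-fold. Elovl6, an elongase, rose 1.94-fold by its brighter probe set. Scd, the stearoyl-CoA desaturase, went from 110 to 171 in experiment 1 and from 127 to 562 in experiment 2. The experiments thus differed by 0.64 against 2.15 on the log2 scale for Scd. Acaca, Fads1, Fads2 and Scd2 were 1.46-fold to 1.53-fold higher and did not pass. Elovl5 changed by -1.05 in experiment 1 and 0.11 in experiment 2. Without the 16 h array of experiment 2, 0 of the 12 passed the second fit.

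Among the other genes that the second fit called as risen, 6 are known for lipid handling. They were gathered after their calls were seen and belong to no fixed list, so no share of such genes can be given. Scarb1, the receptor for high-density lipoprotein, had signals of 151, 331 and 312 in experiment 1 and 103, 154 and 249 in experiment 2, a 2.24-fold rise. Its second probe set was 0.81 higher with an adjusted p of 0.08 in limma with trend and robust. Acsl3, which activates fatty acids, rose 1.87-fold and Lpcat3, which puts polyunsaturated chains into phospholipids, 1.77-fold. Pcyt2, the regulated enzyme of phosphatidylethanolamine synthesis, rose 1.80-fold, and its signal was 385, 547 and 651 in experiment 1 and 292, 424 and 557 in experiment 2. Lpin1, a phosphatidate phosphatase, read 54.9, 78.1 and 99.2 in experiment 1 and 62.2, 101 and 167 in experiment 2. It was called present on 0 of the 2 arrays at 8 h and was tested only through the later arrays, so no fold is given. Tlcd1, a membrane protein that affects phospholipid composition, rose 2.05-fold from signals of 54.1 and 81.0.

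The middle time lay between the ends for most sterol genes. At 12 h against 8 h, which shares the 8 h arrays with the comparison above, the planned limma fit called 0 probe sets, with 817 at an unadjusted p below 0.05, and trend and robust called 7 as risen (0.0389%) and 4 as fallen (0.0222%). Fdps, Nsdhl, Tm7sf2 and Insig1 were the 4 risen ones with a symbol, at 0.73 ± 0.16, 0.83 ± 0.17, 0.93 ± 0.19 and 0.93 ± 0.26 on the log2 scale. The cholesterol list had a median of 0.51 at 12 h, against 1.04 at 16 h. Signals went up at each step from 8 to 12 to 16 h in both experiments for 18 of the 23 cholesterol genes and 7 of the 12 fatty acid genes, against 4.17% of all genes. In the authors' deposited table the change call was increase in both experiments for 14 of the 23 from 8 to 12 h, against 0.356% of all genes. From 12 to 16 h it was increase for 13 of the 23, against 0.287%. For Tm7sf2 the authors' deposited table lists log2 ratios of 1.1 and 1.0 for the first interval and 0.9 and 1.0 for the second.

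From 12 to 16 h, trend and robust called 0 probe sets, as did the planned limma fit, with 682 and 723 at an unadjusted p below 0.05. Tm7sf2 was nearest, at 1.03 ± 0.19 (adjusted p = 0.0539 in limma with trend and robust). With all 12 arrays in the same kind of fit, Tm7sf2 and Fdps passed. Among probe sets named by the smallest p, none of which passed, Srsf10, a splicing factor, and Sult1c2, a sulfotransferase, were higher at 16 h than at 12 h. Mink1, a kinase, Tbc1d20, a Rab GTPase-activating protein, Rin3 and RGD1560340 were highest at 12 h. Mink1 went from 115 to 191 and back to 120 in experiment 1, and from 114 to 178 and back to 117 in experiment 2. The authors' deposited table has log2 ratios of 0.5 and -0.6 for these intervals in experiment 1, called as changes, but 0 and 0.1 in experiment 2, called as no change. The log2 ratios in the authors' deposited table from 8 to 12 h were 0.3 and -0.1 for Tbc1d20, 0.3 and -0.1 for Rin3, and 0.1 and -0.1 for RGD1560340, so it shows no common rise to 12 h. Arl8a, a lysosomal GTPase, was also highest at 12 h in both experiments by signal. The authors' deposited table lists log2 ratios of 0.5 and 0.5 for it to 12 h. To 16 h it lists -0.4 in experiment 1 and 0 in experiment 2, and all were called as no change.

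**Figure D3:**
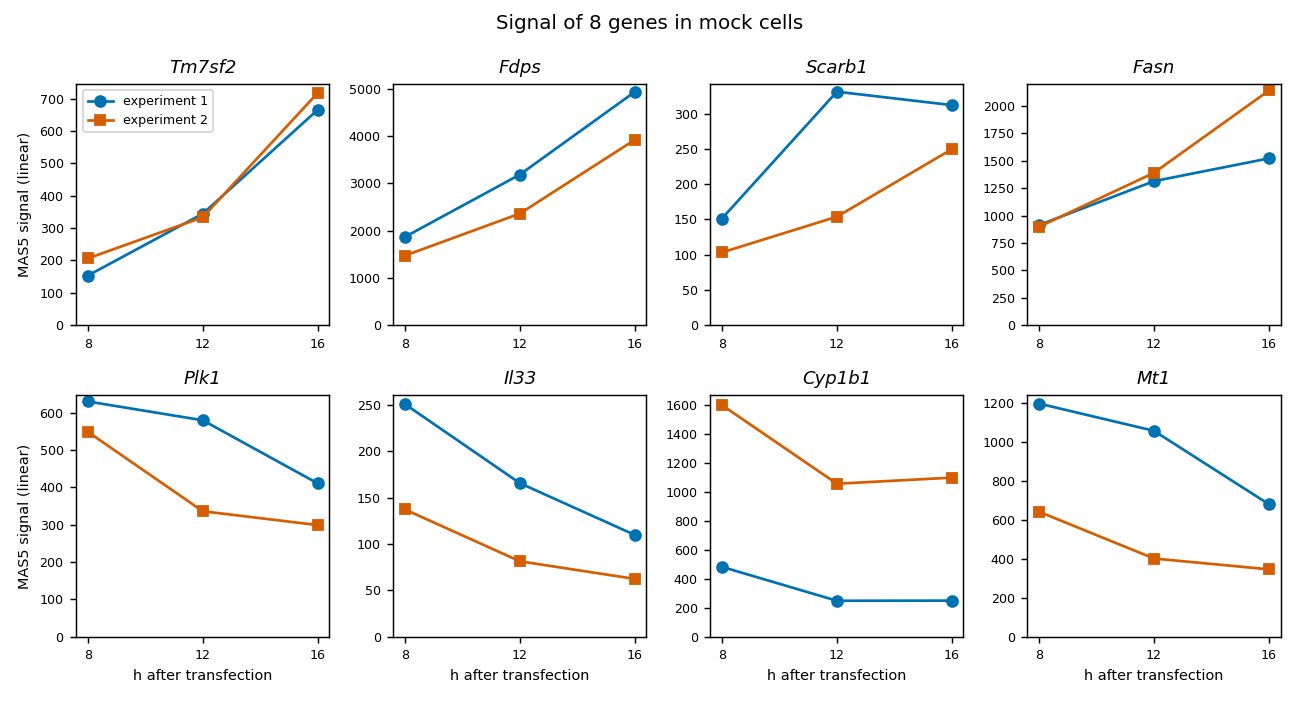
Linear MAS5 signal of 8 genes in mock cells at 8, 12 and 16 h after transfection, circles for experiment 1 and squares for experiment 2, 1 array per point. Tm7sf2, Fdps, Scarb1 and Fasn (top) end above their 8 h signal, and Plk1, Il33, Cyp1b1 and Mt1 (bottom) end below it, in both experiments.

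Start regions of 3 mitotic genes are shown because each holds, beside CCAAT, the letters TTTGAA of the cell cycle homology region, the element through which late cell-cycle genes are known to be timed. Both motifs, and the form TTCGAA, are in capitals on either strand (RefSeq, GRCr8, same window):
Plk1, chr1:186147408-186147707, plus strand: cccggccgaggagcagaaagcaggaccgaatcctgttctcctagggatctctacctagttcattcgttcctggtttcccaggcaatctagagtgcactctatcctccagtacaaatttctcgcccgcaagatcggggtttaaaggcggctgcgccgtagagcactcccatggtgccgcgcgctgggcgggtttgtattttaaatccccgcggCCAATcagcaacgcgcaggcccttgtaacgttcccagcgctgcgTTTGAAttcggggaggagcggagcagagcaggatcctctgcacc
Nusap1, chr3:127057045-127057344, plus strand: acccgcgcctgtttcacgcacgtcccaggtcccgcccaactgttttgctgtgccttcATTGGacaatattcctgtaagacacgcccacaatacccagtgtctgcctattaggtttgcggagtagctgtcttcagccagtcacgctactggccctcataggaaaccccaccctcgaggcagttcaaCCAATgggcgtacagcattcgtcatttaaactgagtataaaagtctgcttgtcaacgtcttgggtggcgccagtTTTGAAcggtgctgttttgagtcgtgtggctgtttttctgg
Cdc20, chr5:137255750-137256049, minus strand: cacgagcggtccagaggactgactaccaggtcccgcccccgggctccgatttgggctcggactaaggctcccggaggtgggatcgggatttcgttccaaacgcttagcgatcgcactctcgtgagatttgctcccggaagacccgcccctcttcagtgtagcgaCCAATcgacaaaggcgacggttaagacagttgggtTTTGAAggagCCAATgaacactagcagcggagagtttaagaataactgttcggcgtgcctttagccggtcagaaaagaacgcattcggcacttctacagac
TTTGAA or its complement stood in 18 of the 26 mitosis genes with a start region (69.2%), against 18.1% of all, and TTCGAA in 3 of the 26 (11.5%), against 1.77%. CCAAT stood in 21 of the 26 (80.8%), so it was about as frequent as among the cholesterol genes.

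Genes of G2 and mitosis had lower signals at 16 h than at 8 h. All 30 of the 37 listed genes that had a probe set were tested. Lower in both experiments were 24 of 30, against 27% of all genes, and 0 of 30 were higher in both. The sizes were small: the median was -0.40, with -0.33 in experiment 1 and -0.43 in experiment 2, and 3 of 30 were at least 1.5-fold lower in both, against 1.07% of all genes. The second fit called 2 of 30 as fallen, against 0.126%, and without either 16 h array it called 0. A fall at each step from 8 to 12 to 16 h in both experiments was seen for 12 of 30, against 4.21% of all genes. In the authors' deposited table the change call was decrease in both experiments for 2 of 30 from 8 to 12 h, against 0.184% of all genes. From 12 to 16 h it was decrease for 0 of 30, against 0.0574%.

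Plk1, the kinase that drives mitotic entry, had signals of 630, 579 and 410 in experiment 1 and 549, 336 and 299 in experiment 2. It fell by 0.75 ± 0.21 on the log2 scale (adjusted p = 0.0374 in limma with trend and robust). Nusap1, a spindle protein, went from 789 through 422 to 457 and from 1086 through 782 to 684, so in experiment 1 its lowest signal was at 12 h, and it fell by 0.73 ± 0.18. Birc5 (survivin), part of the chromosomal passenger complex, was 1.60-fold lower and just missed the threshold in that fit (adjusted p = 0.0521). Its signals were 655, 450 and 408 in experiment 1 and 422, 312 and 266 in experiment 2. Kif2c, a microtubule depolymerase, and Cdc20, which activates the anaphase-promoting complex, changed by -0.64 and -0.60 and did not pass, and a second Cdc20 probe set changed by -0.78. Troap, a spindle protein outside the list, fell by 0.88 ± 0.19 but was called present on 1 of the 2 arrays at 12 h and at 16 h.

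The members that did not follow were Foxm1, which switches on the group and changed by 0.02 ± 0.29, and Cdk1, Cks2, Mad2l1 and Ttk, which were higher in experiment 1 and lower in experiment 2. Top2a was lower in experiment 1 by 0.42 and changed by 0.01 in experiment 2. Of 24 tested genes of DNA replication and S phase, 5 were higher and 5 lower in both experiments, shares near the 24.7% and 27% of all genes, with a median of -0.05 and no call either way. Of the G1 cyclins, CDK inhibitors and growth factor feedback genes, 0 of 20 were called and the median was 0.16. Over all genes 0.402% were called as risen and 0.126% as fallen, so 0 calls in lists of this size say little.

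**Figure D4:**
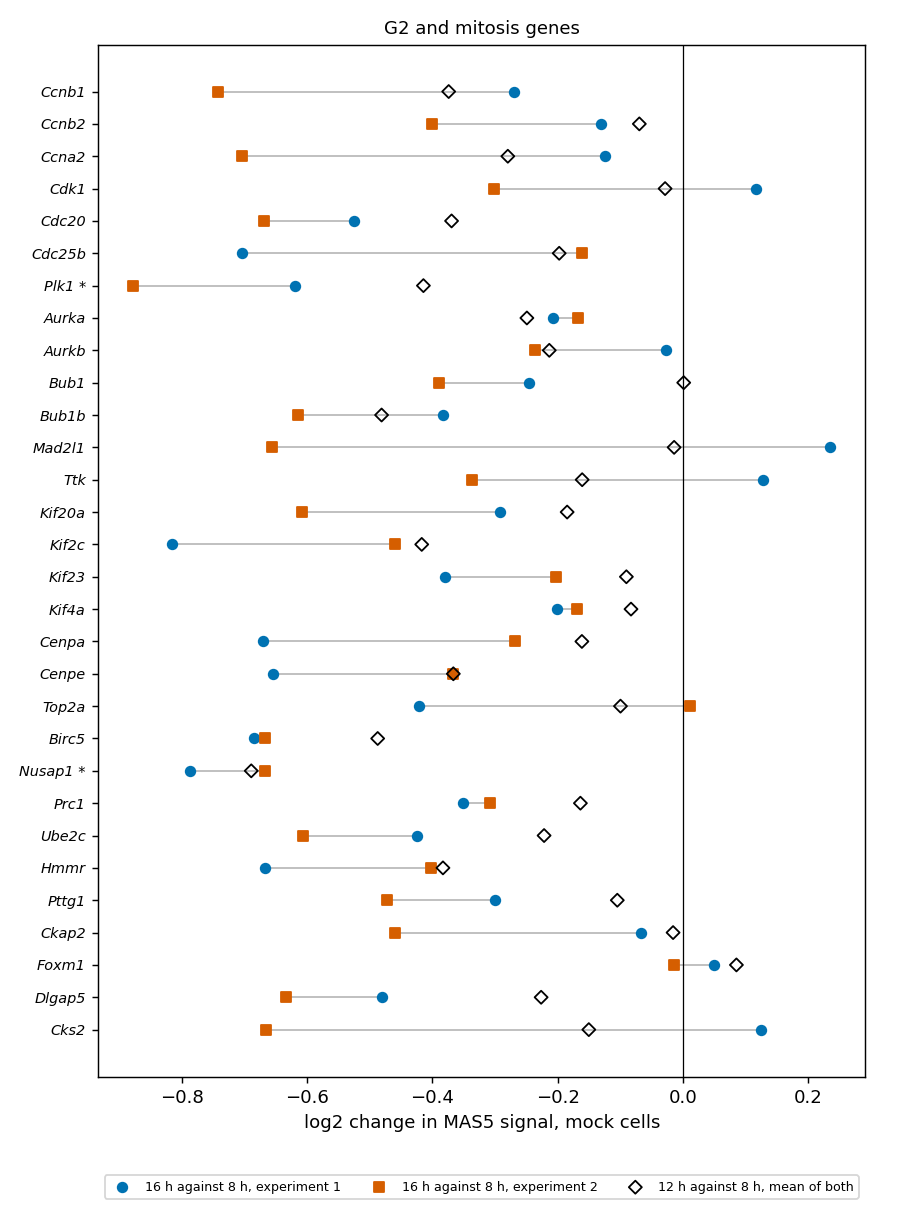
Log2 change in MAS5 signal against 8 h for 30 G2 and mitosis genes in mock cells. Circles and squares give 16 h in experiments 1 and 2, diamonds the mean of both at 12 h, and an asterisk marks Plk1 and Nusap1, which passed in limma with trend and robust; 24 of the 30 are below 0 in both experiments.

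An alarmin and its receptor both fell. Il33, a nuclear cytokine released from damaged cells, had 2 probe sets that fell by 1.17 ± 0.16 and 1.36 ± 0.27. The first read 251, 166 and 110 in experiment 1 and 137, 81.3 and 62.3 in experiment 2. Il1rl1, which encodes ST2, the receptor for Il33, fell by 0.87 ± 0.20, from 2591 to 1187 and from 2011 to 1312. Most of that was there at 12 h, when it stood at 1515 and 1232. Its second, dimmer probe set was 0.70 lower without passing. Of 13 tested NF-kB target genes 0 were called, and their median was 0.15, and for 18 interferon and nucleic acid sensing genes the median was 0.13, again with 0 called. Of all genes 0.402% were called as risen and 0.126% as fallen, so 0 calls in such short lists say little. Higher in both experiments were 6 of the 13 and 8 of the 18, against 24.7% of all genes. Lower in both were 4 and 3, against 27%.

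Of the xenobiotic-metabolising enzymes, Cyp1b1 fell on detected signals. Cyp1b1, a cytochrome P450 induced through the aryl hydrocarbon receptor, read 482, 248 and 249 in experiment 1 and 1601, 1057 and 1099 in experiment 2. It fell by 0.75 ± 0.19 (adjusted p = 0.0212 in limma with trend and robust), with the whole fall between 8 and 12 h. The level differed more between experiments than between times. Cyp1a1, the best known target of that receptor, read 19.3, 2.7 and 2.6 in experiment 1, where it was called present on none of the 3 arrays, and 194, 83.8 and 52.8 in experiment 2. The second fit called it as lower, but that estimate averages in the undetected signals of experiment 1. On the detected signals of experiment 2 alone the change was -1.88 on the log2 scale, with no replicate.

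Of the genes of metal and oxidant defence, 1 fell. Mt1, a metallothionein that binds zinc and copper, read 1197, 1057 and 679 in experiment 1 and 642, 401 and 345 in experiment 2, a fall of 0.85 ± 0.20. Hmox1, heme oxygenase 1, was 0.49 lower and Gpx1, glutathione peroxidase, 0.91 lower, the latter by 0.32 in experiment 1 and 1.51 in experiment 2. Neither passed. Across the 24 tested oxidative stress genes 1 was called as fallen, against 0.126% of all genes, and the median was 0.01. Selenoh, a nuclear selenoprotein outside that list, fell by 0.88 ± 0.20.

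Several of the falls, those of a growth factor and an adhesion gene among them, were not shared by all probe sets of the gene. Kitlg, the ligand of the Kit receptor, fell by 1.26 ± 0.26 on 1 probe set, while its brightest probe set changed by -0.03 and the other 2 by -0.34 and -1.46. Itga6, an integrin that binds laminin, fell by 1.01 ± 0.26 on 1 of 3 probe sets, and the brightest of its 3 changed by -0.19. Cbfb, a partner of the Runx factors, fell by 0.99 ± 0.24, against -0.15 on its brighter probe set. A dim probe set of Prkar2a, a regulatory subunit of protein kinase A, fell by 1.68 ± 0.18, and its other 3 changed by -0.14 to -0.20. For Rpl3, a ribosomal protein, a probe set that may cross-hybridise by its suffix fell by 1.06 ± 0.26, while the main one changed by 0.18. For the falling Rpl3 probe set the authors' deposited table lists log2 ratios of -0.1 and -0.1 to 12 h and 0.2 and 0.1 to 16 h, all called as no change. In all 5 genes the probe sets thus disagreed, and the falls cannot be assigned to the whole transcript. Pmepa1, a TGF-beta target that restrains Smad signalling, had 1 tested probe set, which read 1517, 1450 and 848 in experiment 1 and 339, 293 and 172 in experiment 2, a fall of 0.91 ± 0.16. Ddx6, an RNA helicase of processing bodies, fell by 0.79 ± 0.18 on its brighter probe set, while the dimmer one changed by 1.91 in experiment 1 and -0.86 in experiment 2.

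The rule for named genes also picked lower probe sets that did not pass either fit at 16 h against 8 h. Id4, an inhibitor of basic helix-loop-helix factors that holds back oligodendrocyte differentiation, read 152, 75.8 and 77.3 in experiment 1 and 138, 82.0 and 68.3 in experiment 2, a change of -0.99 ± 0.17 (adjusted p = 0.0507 in limma with trend and robust). Its brightest probe set changed by -0.25 and the other 2 by 0.27 and 0.21. Cdc27, a subunit of the anaphase-promoting complex, changed by -0.96, Zfp410 by -0.80, Glrx2 by -0.79 on 1 of 6 probe sets, and MGC124888 by -0.75. For that Glrx2 probe set the log2 ratios in the authors' deposited table are -0.1 and 0.3 to 12 h and 0.1 and -0.3 to 16 h, with no common direction. At 12 h against 8 h a probe set of Uqcrc2, a core protein of respiratory complex III, did pass the second fit. It fell by 0.75 ± 0.17 (adjusted p = 0.0343 in limma with trend and robust) and was back at its 8 h level at 16 h. Its signals were 1715, 1129 and 1830 in experiment 1 and 1801, 969 and 1733 in experiment 2. The authors' deposited table has no change for this probe set, with log2 ratios of -0.1 and 0 from 8 to 12 h. The other Uqcrc2 probe set changed by -0.07 at 12 h. Lims1, an adaptor of integrin adhesions that was present on 1 of 2 arrays at 8 h, was not picked by the rule. It passed the second fit at 12 h, with a fall of 1.45 ± 0.29 (adjusted p = 0.0343 in limma with trend and robust). It was present on neither 12 h array, and the authors' deposited table has log2 ratios of -0.5 and -0.5 there, both called as no change.

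Other risen genes were more varied. Aldoc, the brain aldolase, which is also an astrocyte marker, read 91.4, 140 and 152 in experiment 1 and 48.4, 114 and 200 in experiment 2, a rise of 1.39 ± 0.34. Of the other 4 tested astrocyte markers 0 were called, against 0.402% risen and 0.126% fallen of all genes, and the median of the 5 was -0.05. Bnip3, a mitophagy receptor induced by low oxygen, rose by 0.77 ± 0.17, from 620 to 1153 and from 737 to 1159. Of 24 tested glycolysis and hypoxia genes 1 was called as risen, against 0.402% of all genes. In both experiments 14 of them were higher, against 24.7% of all genes, and 2 lower, against 27%. The median was 0.22. Vegfa, a standard target of low oxygen, changed by -0.24. The authors' deposited table lists log2 ratios of -0.3 to 12 h and -0.5 to 16 h for it in experiment 1. In experiment 2 it lists 0.1 and 0.1, and all were called as no change. Dpysl2, a microtubule-binding protein of axon growth, rose 1.84-fold, Loxl1, a collagen crosslinker, 1.82-fold, and 2 probe sets of Sult1c2 rose 1.76-fold and 1.78-fold. Among probe sets without a symbol, the largest rise was 3.18-fold, from 108 to 325 and from 166 to 560.

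Most of the remaining lists had medians near 0. Of all genes 0.402% were called as risen and 0.126% as fallen. Lists of this size would mostly hold 0 calls at those shares, so such counts say little about their members. Cytosolic ribosomal protein genes had a median of 0.16, with 0.41 in experiment 1 and -0.09 in experiment 2, and 0 of 34 were called. Immediate early genes (0.03 over 21 genes), clock genes (0.11 over 14), p53 target genes (0.10 over 17), chaperone and unfolded protein response genes (0.19 over 19), cytosolic heat shock genes (0.11 over 12) and amino acid response genes (-0.10 over 26) each had 0 called. Oligodendrocyte lineage markers had a median of 0.09 over 10 genes with 0 called, and some of them, such as Mag and Cldn11, were dim. With so few genes that count sets no contrast with the sterol genes. Among 22 apoptosis genes 0 were called, and Xiap, an inhibitor of caspases, was lowest among the well-detected ones at -1.23 ± 0.24 (adjusted p = 0.0804 in limma with trend and robust). Another 12 lists, from matrix and tubulin genes to proteasome, lysosome and respiratory chain genes, had medians between -0.05 and 0.14 and 0 called, and of the microglia list 1 gene was tested, at 0.73.

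Cells given p25alpha were compared with mock cells by the difference of their 16 h against 8 h changes, fitted on all 12 arrays with experiment as a block. The planned limma fit called 0 of 17992 probe sets (0%), with 793 at an unadjusted p below 0.05, and trend and robust called 1, a probe set without a symbol that rose more in p25alpha cells by 1.84. The sterol rise was found on both sides. The cholesterol list had a median of 0.75 in p25alpha cells against 1.04 in mock cells, the fatty acid list 0.42 against 0.57 and the mitosis list -0.33 against -0.40. For the difference, 0 of 23 cholesterol genes had an unadjusted p below 0.05, against 3.58% of all genes, and 1 of 30 mitosis genes did. Fdps came nearest among the cholesterol genes, at 1.04 in p25alpha cells against 1.41 in mock cells (unadjusted p = 0.0638 in limma). Tm7sf2 changed by 1.63 from 8 to 16 h in p25alpha cells, against 1.96 in mock cells. These values do not show that the changes were equal.

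Scarb1 differed most among the lipid genes named, at 1.16 in mock cells and 0.27 in p25alpha cells, a difference of -0.89 ± 0.30 with an adjusted p of 1.0 in limma. Of the probe sets with the smallest p for the difference, Id4 was 0.99 lower over time in mock cells and changed by -0.02 in p25alpha cells. Gadd45b, a stress-induced gene, Spata9 and Resf1 were higher in p25alpha cells, at 0.84, 0.54 and 0.84, against -0.33, -0.53 and -0.10 in mock cells. Stx5, a Golgi SNARE, Exoc7, an exocyst subunit, Gipc1, a PDZ adaptor, and Prpf4b, a splicing kinase, were lower in p25alpha cells, at -0.33, -0.67, -0.66 and -1.46, against 0.57, 0.34, 0.61 and -0.29. None of these 8 passed after adjustment.

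**Figure D5:**
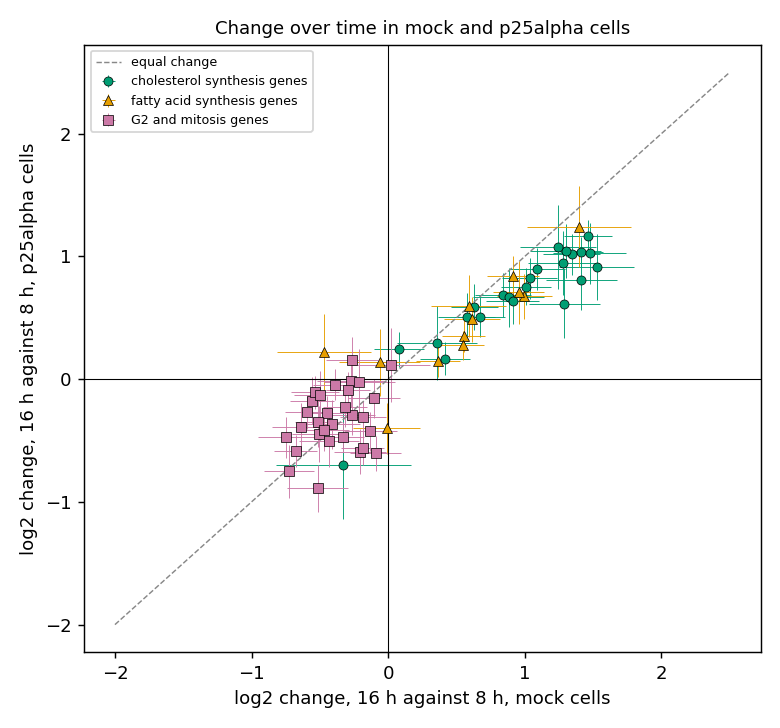
Log2 change in MAS5 signal from 8 to 16 h in mock cells (horizontal) and in p25alpha cells (vertical), 1 symbol per gene by its brightest tested probe set, with SE bars from limma and a dashed line of equal change. Cholesterol genes lie mostly at positive values on both axes and G2 and mitosis genes mostly at negative values on both.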

How the data were processed

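Total RNA was labelled and hybridised to 1 Affymetrix rat array per sample, per the labels' protocols. The deposited signal intensity values are the authors' MAS5 output, according to the submitters' processing notes. The MAS5 version and the genome build are not given in the sources used here. Their trimmed mean was 150.0 on each array, so arrays had been scaled to a common level. Scaling leaves differences in distribution, and dim signals are noisy on the log scale. The authors added present, marginal and absent calls, and log2 signal ratios with change calls between arrays, per the file headers.

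Groups came from the titles. Signals were floored at 0.1 (2 tested values lay there) and log2 was taken. Tests covered probe sets with at least 2 present calls on the 6 mock arrays, without the 57 controls (57.86% of 31096). Of these, 12266 had 1 symbol, 200 several and 5526 none, after 3878 were updated through a RefSeq table (GRCr8) and 708 kept the file's symbol. The planned fit was limma 3.58.1 (R 4.3.3), lmFit and eBayes, with time as 3 groups and experiment as a block (2 residual degrees of freedom). Adjusted p-values are Benjamini-Hochberg over all tested probe sets, threshold 0.05. The SE after each ± is from the planned fit, also where the p-value beside it is from trend and robust. Such a p-value cannot be worked out from that SE. The numbers pair the arrays: experiment differences correlated at 0.595 to 0.603 between times across probe sets. A gene was read by its brightest tested probe set. The fits were tested on simulated data of this size, with noise drawn from the variances that trend and robust had estimated. In these data the planned fit called none of the seeded changes at any size tried. Trend and robust called most of the larger seeded changes and also a few unchanged probe sets. The noise followed the variances of trend and robust, which favours that fit. The simulation therefore cannot decide what the lack of calls by the planned fit means, or which fit is right for the real arrays.

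Alternatives were no block or a random one, all 12 arrays, quantile normalization, median centring, no filter, presence on all arrays, an offset of 50, trend and robust, averaging the probe sets of a gene, and each array left out. Combinations with trend and robust beyond the plain one were chosen after seeing the data. The rule for named genes took 1-symbol probe sets of the same sign in both experiments and above median signal, 12 each way for 16 h against 8 h, 6 for the other times and 4 for the difference, by size among those past the threshold, or by p where fewer than 3 passed, and up to 4 members of each of 32 gene lists. The genes called by trend and robust and the start region motifs were added after values were seen. Some genes that the rule and lists hold are not reported here. Members and lists were chosen with earlier results of these data known. The number of arrays limits the precision.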

Additional observations from a re-analysis of the deposited data

Results flagged for a closer look

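Of the probe sets named for the difference between p25alpha and mock cells, 5 moved in opposite directions in the 2 kinds of cell in both experiments by MAS5 signal. The difference of the 16 h against 8 h change, p25alpha minus mock, was 1.17 for Gadd45b, 1.065 for Spata9, -0.9032 for Stx5, -1.004 for Exoc7 and -1.265 for Gipc1, all on the log2 scale. The test of the difference itself gave an adjusted p of 1.0 for each in limma, so none passed. They were picked for small p-values among 17992 probe sets, and the cause was not tested. For Gadd45b in mock cells of experiment 1 the authors' deposited table lists log2 ratios of 0.3 to 12 h and 0.1 to 16 h. For Spata9 in mock cells of experiment 2 it lists 0.1 and 0.1. These were called as no change, so it shows no fall there. For Stx5, Exoc7 and Gipc1 neither experiment had 2 falling ratios in mock cells, and neither had 2 rising ones. All their mock intervals were called as no change, so the deposited ratios show no clear rise there.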

How the results depend on the processing

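The planned fit called 0 probe sets in each of the 4 comparisons, and with no replicate block it again called 0 in each, also with trend and robust for the 3 mock comparisons. For 16 h against 8 h, calls numbered 73 with trend and robust, 83 with an offset of 50, 72 with all 12 arrays and trend and robust, and 97 with presence on all arrays and trend and robust, and 56 of the 73 were also called with all 12. For 12 h against 8 h these 4 settings gave 11, 3, 4 and 17, and the random replicate block, all 12 arrays and median centring gave 1 each (Ppm1k). For 16 h against 12 h the random block gave 3, all 12 arrays 1, the offset 1, all 12 arrays with trend and robust 2 and presence on all arrays with it 2. The difference between p25alpha and mock cells gave 1 with the offset and 1 with trend and robust. Leaving out 1 array gave 0 calls in the 3 mock comparisons and 0 to 8 in the difference (1 without the 16 h mock array of experiment 1, 8 without that of experiment 2). With trend and robust, leaving out 1 array at a time (8, 12 and 16 h, experiment 1 then 2 at each) gave 118, 116, 71, 76, 78 and 13 calls for 16 h against 8 h, 42, 61, 3, 0, 8 and 8 for 12 h against 8 h and 23, 25, 4, 0, 3 and 0 for 16 h against 12 h. The direction of the calls also moved: 86 of 118 were higher without the 8 h array of experiment 1, and 44 of 116 without that of experiment 2. List medians held their sign over 25 settings, from 0.82 to 1.28 for cholesterol genes, 0.43 to 0.73 for fatty acid genes and -0.42 to -0.31 for mitosis genes. Among single genes and list medians, 1110 values kept their direction and side of the threshold, 217 crossed it to pass, 3 moved by more than the spread and none reversed. The cause of these differences was not tested. Dim probe sets near the lowest signals called present, 2.7 to 4.5 on the mock arrays, limit what can be seen of Cyp1a1.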
